A study of Rattus norvegicus with 23 samples.

Results

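The genes described here are the Wnt ligands, their receptors and the secreted proteins that modulate them, in 6 regions of the rat heart and its great vessels. They were chosen by symbol: every gene named Wnt, Fzd, Sfrp, Dkk or Rspo with a number, together with *Frzb*, *Wif1*, *Lrp5*, *Lrp6*, *Lgr4* and *Lgr5*. The rat annotation of RefSeq holds 47 such genes, of which 44 were matched by at least 1 probe among the 16544 named genes of the array: 17 Wnt ligands, 10 Frizzled receptors, 4 Lrp and Lgr receptors, 5 members of the Sfrp family, 4 Dickkopf genes and 4 R-spondins. *Wif1*, *Wnt2* and *Wnt3a* were not analysed here. RNA of left atrium next to the pulmonary vein (LA), left ventricle (LV), right ventricular free wall (RV), sinoatrial node (SA), pulmonary vein (PV) and pulmonary artery (PA) came from 12 male Wistar rats of 8 to 11 weeks, with no experimental treatment described and the same strain, sex and age range in every region. The methods say that the rats were anesthetized with pentobarbital and given heparin, and that heart and lungs were perfused with ice-cold calcium-free solution. They also say that SA was isolated separately, so in comparisons of SA the region and its separate isolation cannot be told apart. Each region has 4 arrays, except RV with 3, and LV and RV together (V) have 7. Each SA sample pooled the tissue of 2 rats, and the methods say that each left ventricle was cut into several pieces that served as samples. The 19 arrays of the other 5 regions came from no more than 12 rats, so some of them share an animal, but no source says which. The tests treated all arrays as independent, and the spread between arrays is the only error available. All tissues were dissected whole, and a bulk signal does not tell which cells made it: fewer cells of a type and less RNA per cell cannot be told apart.

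Wnt proteins are lipid-modified secreted ligands that bind Frizzled receptors. With the co-receptors Lrp5 or Lrp6 they stabilize β-catenin, which activates transcription together with TCF/LEF factors, while other Wnt proteins act through Frizzled and Ror receptors on calcium or cell polarity without β-catenin. Proteins of the Sfrp family bind Wnt proteins outside the cell, Dkk1 and its relatives block Lrp5 and Lrp6, and R-spondins act on Lgr4 and Lgr5 to keep Frizzled receptors on the cell surface. In the heart the pathway is best known from development, where it guides cardiac specification, outflow tract formation and valve growth.

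Levels are given as log2 of the normalized signal plus 1, with the highest probe of a gene taken on each array. Since each probe binds its target differently, a level is compared between regions and never between genes. Where a gene has several probes, the highest was not always the same probe on every array. A signal was called above background where the scanner software marked it as well above the local background. By this mark 23 members were above background on all 23 arrays, 14 on every array of at least 1 region, 5 on some arrays only, and 2, the Dickkopf genes *Dkk2* and *Dkk4*, on no array. The 5 members seen only on some arrays were *Dkk1*, *Lgr5*, *Wnt4*, *Wnt8b* and *Wnt10a*, whose region means stayed between 2.53 and 6.26. All 44 members passed the low filter, a value above 4 on at least 1 array. In the test among LA, V and SA, whose filter used only those arrays, 43 passed and *Dkk2* was not tested.

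The arrays differed more in sensitivity than in scale. The share of probes above background ran from 58.6% to 79.8%, with a median of 77.3% over the 11 arrays in row 1 of the 3 slides and of 61.5% over the 12 arrays in row 2, and 3 of 4 LA arrays but 1 of 4 arrays each of SA and PV lay in row 1. Within each slide and within each row, the members called in a comparison differed in the same direction as over all arrays, except *Dkk2* in PA on slide 2 and *Wnt11* in PA on slide 1. The tissue labels were checked with marker lists. The mean level of 5 atrial myocyte genes was 17.82 to 18.26 on the LA, SA and PV arrays and 12.98 or less elsewhere, that of 4 ventricular myocyte genes was 16.93 to 17.26 in LV and RV and 13.48 or less elsewhere, and that of 6 sinoatrial pacemaker genes was 9.54 to 9.67 in SA and 9.34 or less elsewhere. The mean of 6 smooth muscle genes was 16.22 to 16.47 in PA, 12.81 to 13.43 in PV, 11.98 to 12.76 in SA and 11.06 or less in LA, LV and RV.

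Of the 44 members, 30 (68.2%) differed among the 6 regions by limma's moderated F-test at an adjusted p below 0.05, against 64.4% of all 16089 genes tested. Without PA, 21 members differed among the other 5 regions (42.7% of all genes), and 17 of the 43 tested differed among LA, V and SA (40.5% of all 15809 genes tested there). These shares lie near those of all genes. Over the 37 members that were above background on every array of some region, the distance between the highest and the lowest region mean ran from 0.18 for *Wnt3* to 7.85 for *Frzb*, with a median of 1.38; it was over 2 for 12 of them and under 1 for 11. PA had the highest mean of 17 of the 37 members, RV of 5, LA, LV and PV of 4 each, and SA of 3. The lowest mean was in PA for 8 of them, so that PA stood at either end for 25 of 37. Over the 13108 genes above background in the same way PA stood at either end for 72% (38.7% highest, 33.3% lowest).

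**Figure D1:**
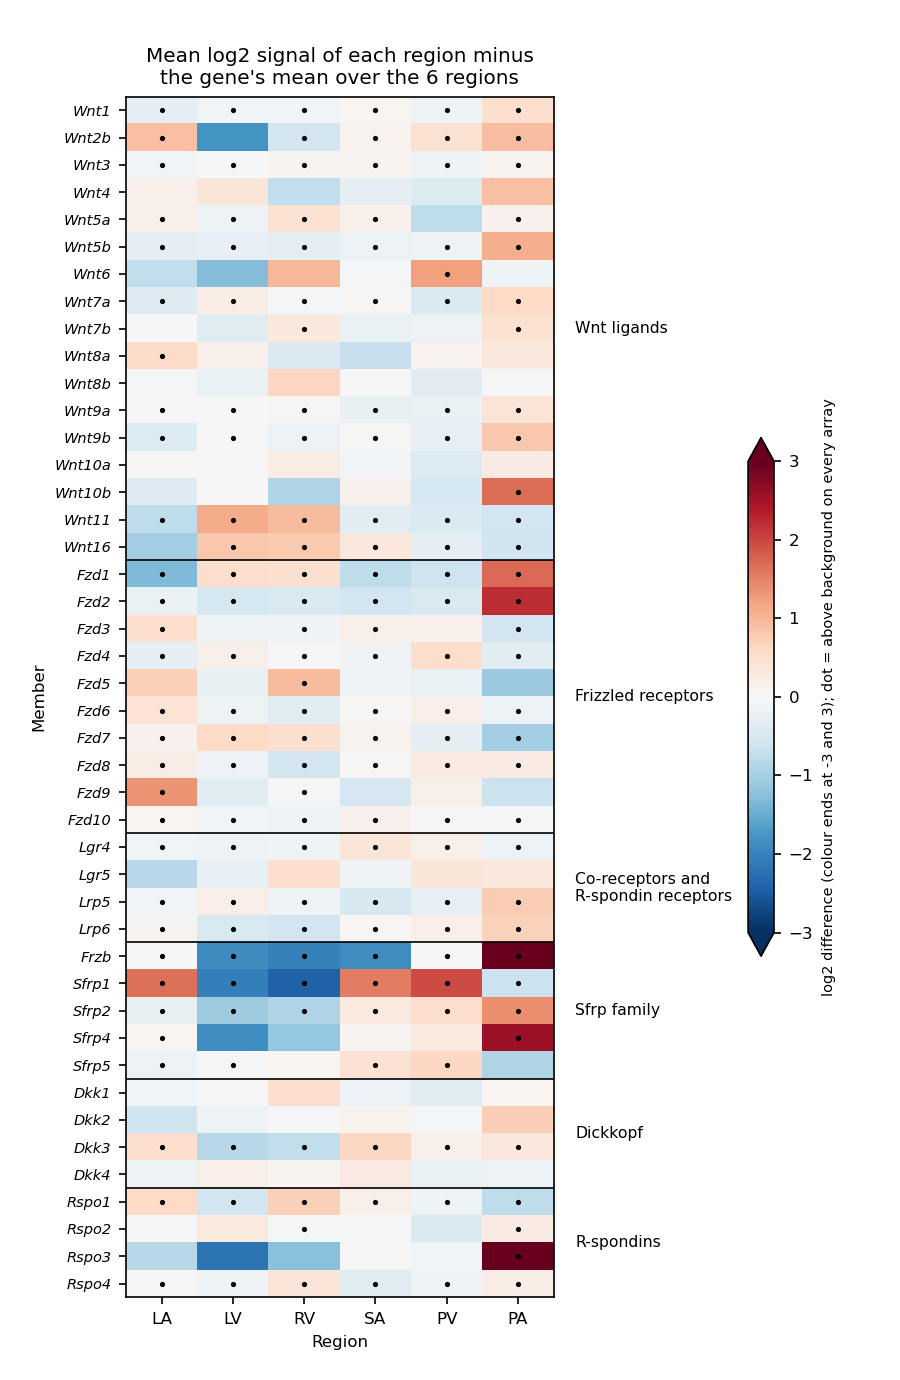
Mean log2 signal of each of the 44 members (rows, ordered by family) in each region (columns), minus that gene's mean over the 6 regions; red is higher, blue lower, colors end at -3 and 3, and a dot marks a region in which the gene was above background on every array. PA holds the highest mean of 17 of the 37 members with a dot in at least 1 region, and *Sfrp1*, *Frzb*, *Sfrp4* and *Rspo3* show the widest spread.

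The promoters of 28 of the 44 members were found in the RefSeq table for the rat build GRCr8, as windows of 300 bases from 250 before to 50 after a start site that the table gives for the gene. This site is the annotated outer end of the gene for 22 of the 28 members and lies inside the gene for 6; among the windows shown it lies 3700 bases inside for *Wnt11* and 72 bases inside for *Frzb*, and at the outer end for the other 3. The windows of *Frzb*, *Fzd1* and *Rspo3* are shown because these genes were highest in PA, and those of *Wnt11* and *Wnt2b* because they differed in opposite directions between atrium and ventricle; *Sfrp1*, *Sfrp4* and *Fzd2* had no entry. They lie at chr3:85772047-85772346 on the minus strand (*Frzb*), chr4:30264824-30265123 on the plus strand (*Fzd1*), chr1:30112279-30112578 on the plus strand (*Rspo3*), chr1:162549110-162549409 on the plus strand (*Wnt11*) and chr2:195156896-195157195 on the minus strand (*Wnt2b*). Each is printed 5′ to 3′ in the direction of the gene, and capitals mark the core CTTTG of the TCF/LEF motif, searched on both strands.
Frzb: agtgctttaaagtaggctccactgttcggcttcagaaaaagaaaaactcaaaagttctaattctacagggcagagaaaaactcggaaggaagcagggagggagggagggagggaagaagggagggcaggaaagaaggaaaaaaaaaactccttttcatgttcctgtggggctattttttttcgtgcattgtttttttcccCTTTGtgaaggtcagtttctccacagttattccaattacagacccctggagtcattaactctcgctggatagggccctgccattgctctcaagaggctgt
Fzd1: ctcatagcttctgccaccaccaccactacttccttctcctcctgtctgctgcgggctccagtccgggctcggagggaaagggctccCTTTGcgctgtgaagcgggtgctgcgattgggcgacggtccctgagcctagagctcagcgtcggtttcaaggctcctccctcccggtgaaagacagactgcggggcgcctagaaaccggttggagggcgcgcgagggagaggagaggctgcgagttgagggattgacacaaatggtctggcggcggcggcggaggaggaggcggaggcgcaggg
Rspo3: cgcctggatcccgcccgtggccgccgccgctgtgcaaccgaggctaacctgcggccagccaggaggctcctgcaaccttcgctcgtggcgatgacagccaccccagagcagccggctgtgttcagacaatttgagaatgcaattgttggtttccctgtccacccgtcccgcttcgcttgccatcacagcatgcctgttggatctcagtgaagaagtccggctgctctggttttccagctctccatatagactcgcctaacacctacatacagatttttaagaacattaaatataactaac
Wnt11: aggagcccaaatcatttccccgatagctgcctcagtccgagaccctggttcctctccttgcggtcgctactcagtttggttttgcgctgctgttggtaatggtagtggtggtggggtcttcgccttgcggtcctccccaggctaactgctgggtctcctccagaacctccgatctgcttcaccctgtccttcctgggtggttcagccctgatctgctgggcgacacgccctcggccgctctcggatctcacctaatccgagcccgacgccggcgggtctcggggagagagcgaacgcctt
Wnt2b: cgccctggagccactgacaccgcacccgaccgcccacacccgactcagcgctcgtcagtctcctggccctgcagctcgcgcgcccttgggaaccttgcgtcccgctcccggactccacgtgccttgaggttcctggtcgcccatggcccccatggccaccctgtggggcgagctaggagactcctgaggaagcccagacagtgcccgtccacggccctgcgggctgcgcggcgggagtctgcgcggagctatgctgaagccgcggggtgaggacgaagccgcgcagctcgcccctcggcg

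The core occurred once in *Frzb*, beginning at position -50 relative to the start site, and once in *Fzd1*, beginning at -164. These letters are not in the windows of *Rspo3*, *Wnt11* and *Wnt2b*. The core is short: it occurred in 12 (42.9%) of the 28 members' windows and in 53.8% of all 33469 windows. The GC content was 45.3% in *Frzb*, 65.3% in *Fzd1*, 55.3% in *Rspo3*, 61.7% in *Wnt11* and 72.0% in *Wnt2b*, against a median of 65.3% over the members' windows and 51.7% over all windows.

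Which members set the pulmonary artery apart from the heart and the vein was asked first. In PA 19 members were higher and 11 lower than the mean of the other 5 regions, where 31.4% of all genes were higher and 27.7% lower. The median difference of the members was 0.31, beside 0.05 over all genes tested. By family, 9 of 17 ligands were higher and 1 lower, 2 of 10 Frizzled receptors were higher and 6 lower, 3 of 5 Sfrp genes were higher and 2 lower, and 1 of 4 R-spondins was higher and 1 lower. On 24 of these 30 members the higher side was above background on every array, and 11 of the 44 members were called without overlap between PA and the other 19 arrays, as were 32% of all genes. With normexp background correction the split was 19 higher and 6 lower.

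*Frzb*, a Wnt-binding protein of the Sfrp family first described in cartilage, had the widest difference of all members. On the 4 PA arrays its log2 level was 16.80, 16.91, 16.65 and 16.64. It was 11.14, 11.45, 10.40 and 10.42 in LA, 10.32, 10.53, 11.36 and 11.49 in PV, 8.90, 9.29, 9.06 and 8.84 in LV, 8.88, 8.92 and 8.89 in RV, and 8.95, 8.98, 8.89 and 9.37 in SA. The PA arrays thus lay far above all others, LA and PV overlapped each other in the middle, and LV, RV and SA overlapped at the bottom. PA exceeded the mean of the other regions by 7.0 (SE 0.19, adjusted p = 7.28e-17), a 128-fold difference in signal.

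*Rspo3*, an R-spondin that amplifies Wnt signaling and acts in vessel formation, was above background on every array only in PA. Its level there was 9.38, 9.42, 9.26 and 9.61, and on the other 19 arrays it lay between 2.35 in LV and 5.58 in SA, above background on 4 of them. No array of another region came near those of PA. The difference was 5.23 (SE 0.33, adjusted p = 3.12e-11). Since 15 of the other 19 arrays were not above background, the size of this difference is uncertain, and normexp correction gave 2.93. Of the other R-spondins, *Rspo1* was lower in PA by 0.91 (SE 0.31, adjusted p = 0.0171) with overlap between the groups; this call was lost without PA replicate 2 (adjusted p = 0.0716) and with normexp correction (difference -0.51, adjusted p = 0.0522). *Rspo2* and *Rspo4* did not pass the test, with differences of 0.31 (SE 0.35) and 0.26 (SE 0.20).

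The rest of the Sfrp family moved in both directions. *Sfrp4* had levels of 8.09, 8.12, 7.76 and 8.53 in PA and of 3.45 to 6.73 elsewhere, without overlap, and PA was higher by 3.09 (SE 0.28, adjusted p = 6.92e-09). Of the other 19 arrays, 10 were above background, so the size of this difference is uncertain too, and normexp correction gave 1.66. *Sfrp2* was 10.08, 9.87, 9.75 and 9.41 in PA and higher there by 1.69 (SE 0.33, adjusted p = 0.000144), yet 1 of 4 PV arrays, at 10.13, lay above all of PA. *Sfrp5* was lower in PA by 1.09 (SE 0.18, adjusted p = 1.99e-05), with levels of 4.72 to 5.54 against 5.65 to 7.06 elsewhere, and normexp correction gave -0.41. The call for *Sfrp1* depended on the probe. Its PA arrays, at 10.86 to 11.26, lay between the ventricles, at 9.10 to 9.82, and the LA, SA and PV arrays, at 13.09 to 13.96, and PA was lower by 0.78 (SE 0.12, adjusted p = 8.27e-06). Tested alone, 1 probe of *Sfrp1* was lower in PA by 1.03 (adjusted p = 6.5e-07) and the other higher by 0.48 (adjusted p = 0.0185), so that no single direction holds for this gene in PA.

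**Figure D2:**
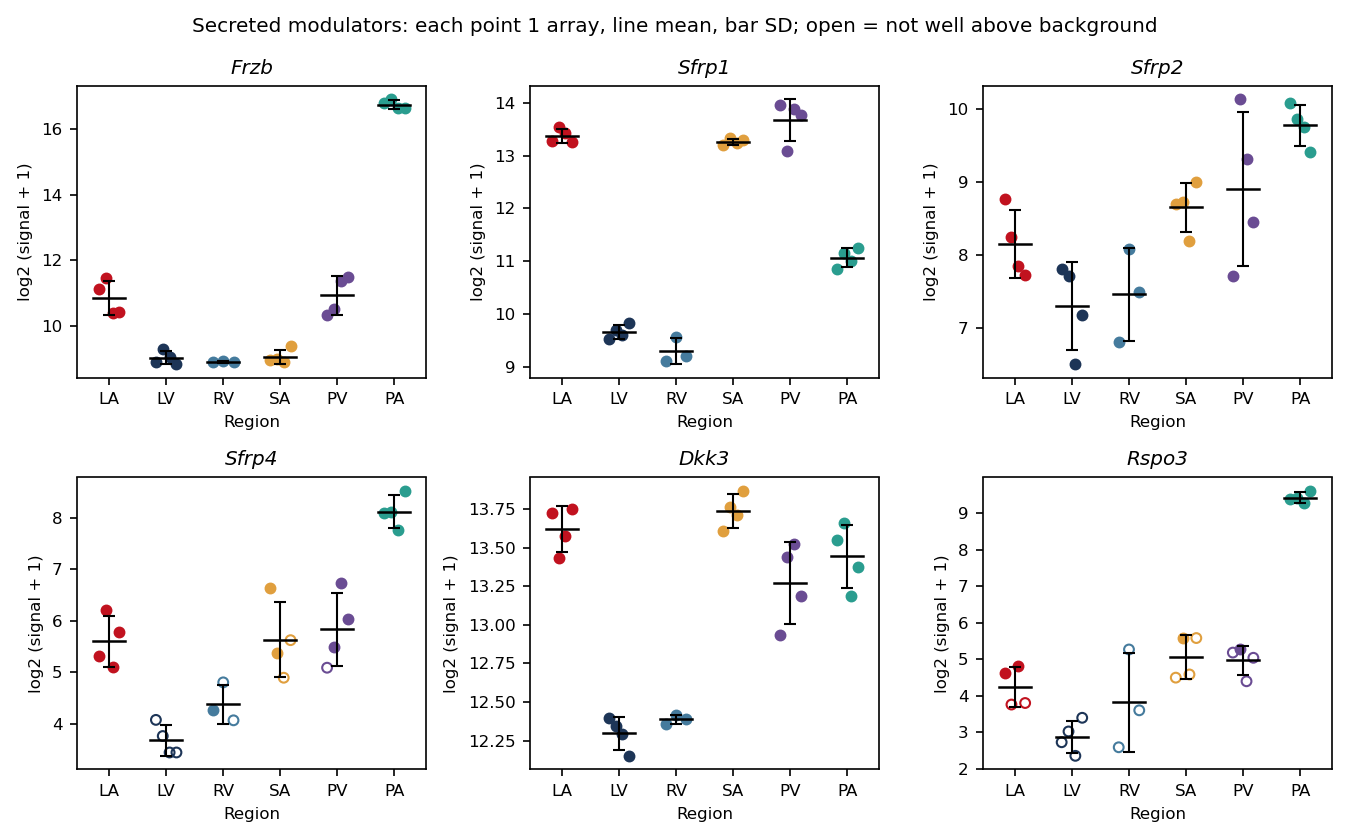
Log2 signal plus 1 (y axis) of 6 secreted modulators on each array, by region (x axis); points are arrays, filled where above background and open where not, lines are means and bars SD. The 4 PA arrays of *Frzb*, *Sfrp4* and *Rspo3* lie above all others, and *Sfrp1* and *Dkk3* are lowest in LV and RV.

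Among the receptors, *Fzd2* and *Fzd1*, which belong to one subgroup of Frizzled receptors, were higher in PA. *Fzd2* was 10.48, 10.72, 10.10 and 10.14 in PA and between 7.20 and 8.08 on all other arrays, a difference of 2.67 (SE 0.14, adjusted p = 1.06e-12). *Fzd1* was 13.22, 13.23, 12.73 and 12.86 in PA, which exceeded every other array, the highest being 12.12 in LV, and the difference was 2.04 (SE 0.15, adjusted p = 3.14e-10). *Fzd7*, of the same subgroup, went the other way: it was 6.61, 6.70, 6.55 and 6.57 in PA and 7.12 to 8.53 elsewhere, lower by 1.21 (SE 0.15, adjusted p = 4.25e-07), or -0.75 with normexp correction. The co-receptors *Lrp5* and *Lrp6* were both higher in PA without overlap, by 0.90 (SE 0.11, adjusted p = 2.98e-07) and 0.84 (SE 0.06, adjusted p = 3.08e-10).

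The arrays of the other receptors called in PA overlapped those of other regions. *Fzd3*, a receptor of the cell polarity branch, was lower by 0.69 (SE 0.17; -0.26 with normexp correction) and *Fzd4*, the receptor of norrin in vessels, by 0.37 (SE 0.13). *Fzd5* was not above background on any PA array and was so on 10 of the other 19. Its difference was -1.33 (SE 0.34, adjusted p = 0.0022), and normexp correction gave -0.27 and no call (adjusted p = 0.0614). *Fzd6* (-0.21), *Fzd9* (-0.79) and *Lgr4* (-0.21), the receptor of R-spondins, passed the test too, but *Fzd6* lost the call when any 1 of 14 arrays was left out (adjusted p up to 0.205), *Fzd9* without LV replicate 4, PA replicate 2 or 4, PV replicate 2 or 3, RV replicate 2 or SA replicate 2 (adjusted p up to 0.187) and with normexp correction (-0.18, adjusted p = 0.175), and *Lgr4* without PA replicate 1 (adjusted p = 0.0712), as *Fzd4* did without PA replicate 2 (adjusted p = 0.0568). Normexp correction ended the calls of *Fzd6* (-0.16) and *Lgr4* (-0.15) as well, each with an adjusted p of 0.129 in limma. The call of *Fzd6* was also lost with a variance trend and with row or replicate number as a block. That of *Fzd9* was lost with replicate number as a block. Of the 2 probes of *Fzd4*, 1 did not pass when tested alone (-0.13, adjusted p = 0.818). *Fzd8* and *Fzd10* did not pass. Of the 3 probes of *Fzd8*, 1 was higher in PA by 1.30 (adjusted p = 1.76e-05), and of the 2 probes of *Fzd10*, 1 was lower by 1.41 (adjusted p = 0.0128). The other probes of *Fzd8* differed by 0.33 and 0.31, and that of *Fzd10* by -0.04, and none of these passed the test.

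**Figure D3:**
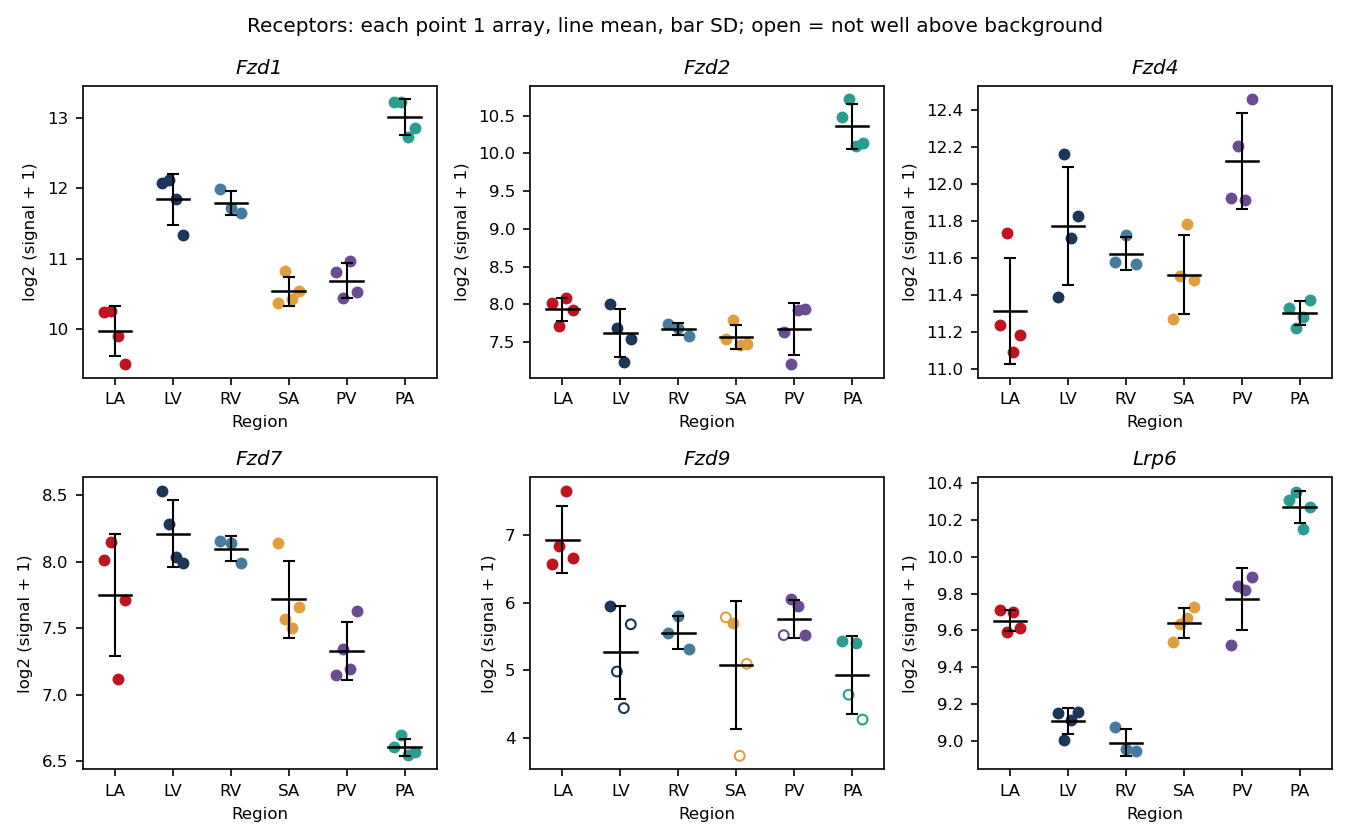
Log2 signal plus 1 (y axis) of 5 Frizzled receptors and the co-receptor *Lrp6* on each array, by region (x axis); points are arrays, filled where above background and open where not, lines are means and bars SD. *Fzd1*, *Fzd2* and *Lrp6* are highest and *Fzd7* lowest on the 4 PA arrays, *Fzd9* is highest on the LA arrays, and the mean of *Fzd4* is highest in PV.

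Of the ligands, *Wnt10b* and *Wnt5b* showed the largest differences without overlap. *Wnt10b*, a ligand of the β-catenin branch, was 6.82, 7.71, 7.55 and 6.44 in PA and 3.05 to 6.43 elsewhere, higher by 2.02 (SE 0.47, adjusted p = 0.000916), or by 0.92 with normexp correction. *Wnt5b*, a relative of *Wnt5a*, was 8.78, 8.86, 8.87 and 8.67 in PA and 6.69 to 7.99 elsewhere, higher by 1.31 (SE 0.21, adjusted p = 1.66e-05). *Wnt2b* was higher by 1.11 (SE 0.31, adjusted p = 0.00418; 0.62 with normexp correction), but its PA arrays, at 7.28 to 8.40, overlapped those of LA, at 7.28 to 8.25. Smaller differences that overlapped the other regions were measured for *Wnt9b* (0.98), *Wnt7a* (0.71), *Wnt1* (0.60), *Wnt7b* (0.54) and *Wnt9a* (0.48), and 1 of the 2 probes each of *Wnt1* and *Wnt9b* passed when tested alone. *Wnt7b* lost its call when any 1 of 11 arrays was left out (adjusted p up to 0.169) and with normexp correction (0.18, adjusted p = 0.142), and *Wnt7a* lost it without PA replicate 1 or 2 (adjusted p up to 0.0799). *Wnt4*, above background on 3 of 4 PA arrays, was higher by 1.1, or 0.42 with normexp correction, a call lost without PA replicate 1, 2 or 3 or RV replicate 2 (adjusted p up to 0.135). With slide as a block in limma the calls of *Wnt4* (adjusted p = 0.0533) and *Wnt7b* were lost too. *Wnt11* was the 1 ligand called lower in PA than the mean of the other regions, by 0.70 (SE 0.11, adjusted p = 2.34e-05). Its PA arrays, at 7.39 to 8.05, overlapped those of LA, PV and SA, at 7.24 to 8.20, and lay below those of LV and RV, at 9.14 to 9.52, and the PA mean of 7.74 was above the LA mean of 7.57.

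The Dickkopf genes contributed little. *Dkk3*, a divergent member that does not act on Lrp5 and Lrp6 as Dkk1 does, was higher in PA by 0.38 (SE 0.09, adjusted p = 0.00162), but its 4 probes gave differences from -0.03 to 0.90, and 2 of the 4 passed the test. *Dkk2* was called higher by 0.87 although no array was above background; the call was lost without PA replicate 1 or 2 (adjusted p up to 0.164), and normexp correction gave 0.34. *Dkk1* and *Dkk4* did not pass. The smooth muscle markers given above moved with the differences of PA, since all 6 were above background on every PA array and their mean on each PA array exceeded every other array; their part in the results was not tested. The mean of 6 fibroblast genes, in contrast, was 13.56 to 13.80 in PA and 13.49 to 13.80 in PV, and 12.61 to 13.66 in LA, LV, RV and SA. The mean of 5 endothelial genes was 10.53 to 11.34 in PA and 11.45 to 12.73 elsewhere. Markers of cardiac muscle were low in PA: the ventricular myocyte mean was 8.53 to 11.07 in PA and 12.65 or more on every other array, and the atrial myocyte mean 8.12 to 11.80 in PA, 11.42 to 12.98 in LV and RV and 17.82 or more in LA, SA and PV. The mean of 3 lymphocyte genes was 3.91 to 4.26 in PA and 4.37 or more elsewhere. Of these, *Cd3e* and *Cd79b* were not above background on any PA, PV or SA array, so the size of this difference is uncertain. The adipocyte mean (5 genes) was 10.85 to 11.34 in PA, 10.40 to 11.19 in SA, 9.81 to 11.52 in PV and 7.77 to 9.61 in LA, LV and RV. The autonomic neuron mean (5 genes) was 8.18 to 9.53 in PA, 8.60 to 11.81 in PV and 6.29 to 7.92 in LA, LV, RV and SA. The part of these markers was not tested either.

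How the atrium differs from the ventricles was asked next. LA was compared with the mean of LV and RV, and 10 members were higher and 5 lower, where 16.9% of all genes were higher and 18.4% lower. The median difference of the members was -0.02, beside -0.09 over all genes. The split was 10 higher and 3 lower with scaling to the 75th percentile and 8 higher and 9 lower with normexp correction. Of the 44 members, 11 were called without overlap between LA and V, as were 24.1% of all genes.

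*Sfrp1*, a secreted inhibitor that binds Wnt proteins, had the largest difference between atrium and ventricle among the members. It was 13.28, 13.53, 13.42 and 13.26 in LA, 9.53, 9.69, 9.59 and 9.82 in LV, and 9.10, 9.57 and 9.21 in RV. The groups were far apart, and LA was higher by 3.90 (SE 0.14, adjusted p = 9.88e-14), a 14.9-fold difference. The highest was 1 probe on every LA array and the other on every RV array, so this difference mixes probes. Tested alone, both probes of the gene were higher in LA, by 4.09 and by 2.36. *Dkk3* was 13.72, 13.43, 13.58 and 13.75 in LA and 12.15 to 12.41 in LV and RV, higher by 1.28 (SE 0.11, adjusted p = 1.9e-08), and its 4 probes gave 1.28 to 2.09. *Frzb* was higher in LA by 1.89 (SE 0.22, adjusted p = 1.23e-06), without overlap. *Sfrp4* was higher by 1.57 (SE 0.32, adjusted p = 0.000642), but it was above background on 1 of 7 ventricular arrays, and normexp correction gave 0.25 (adjusted p = 0.253).

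Among the ligands, *Wnt11* and *Wnt16* were lower and *Wnt2b* was higher in LA. *Wnt11*, which acts largely without β-catenin and is needed for the developing heart, was 7.84, 7.75, 7.24 and 7.44 in LA, 9.32, 9.50, 9.45 and 9.52 in LV, and 9.45, 9.21 and 9.14 in RV. The groups did not overlap, and LA was lower by 1.79 (SE 0.13, adjusted p = 2.65e-09). *Wnt2b* was 8.25, 8.18, 7.83 and 7.28 in LA, 5.81, 5.43, 5.59 and 3.86 in LV, and 6.15, 6.31 and 6.74 in RV, higher in LA by 2.10 (SE 0.35, adjusted p = 9.55e-05), or by 1.11 with normexp correction. *Wnt16*, a ligand best known from bone, was 4.99, 5.17, 5.89 and 7.28 in LA and 6.77 to 8.22 in the ventricles, lower in LA by 1.85 (SE 0.37, adjusted p = 0.000593) with LA replicate 4 inside the ventricular range, and normexp correction gave -1.17. The other 14 ligands did not pass the test.

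**Figure D4:**
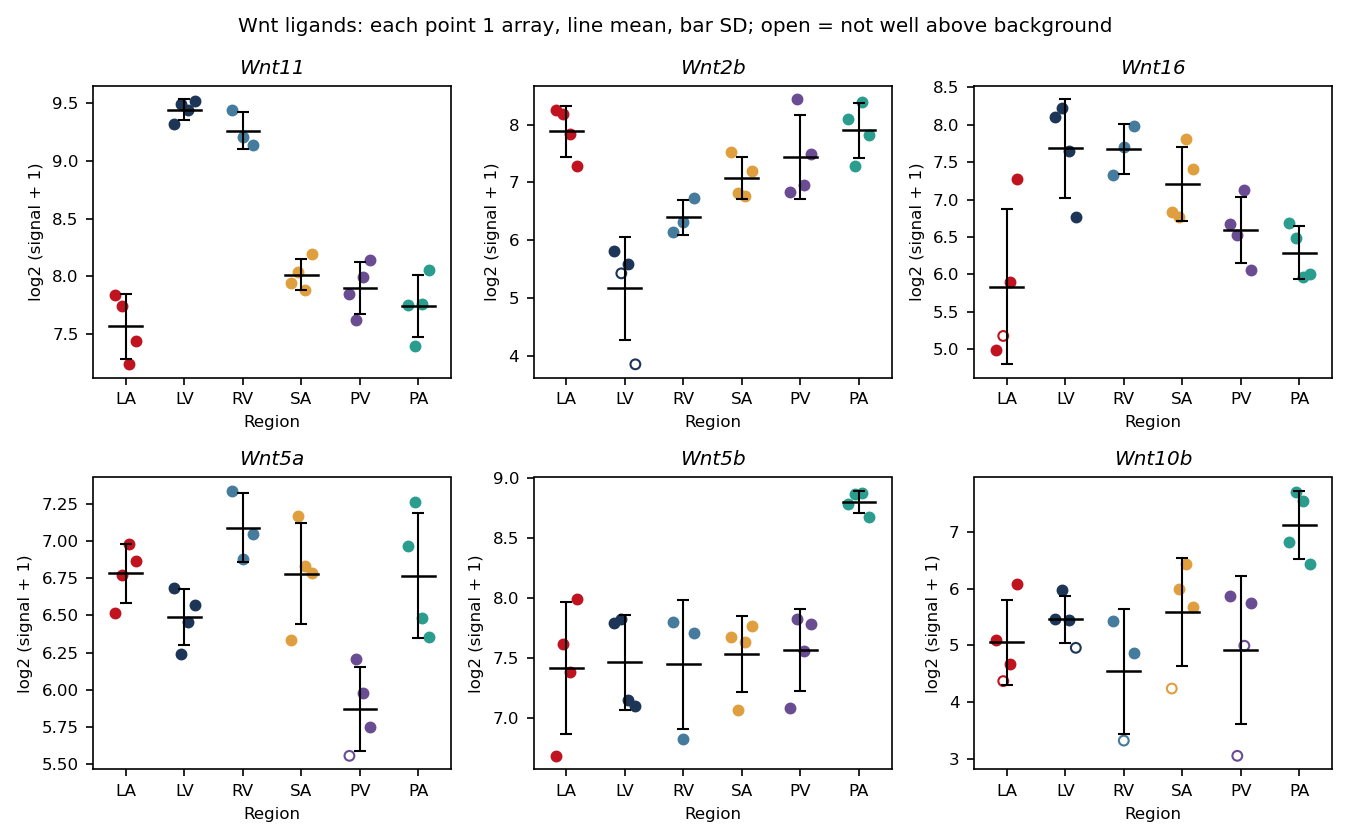
Log2 signal plus 1 (y axis) of 6 Wnt ligands on each array, by region (x axis); points are arrays, filled where above background and open where not, lines are means and bars SD. *Wnt11* is highest on the 7 LV and RV arrays, *Wnt2b* is lowest there, *Wnt5a* is lowest in PV, and *Wnt5b* and *Wnt10b* are highest in PA.

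Of the Frizzled receptors 4 were higher and 2 lower in LA. *Fzd1* was 10.25, 10.25, 9.90 and 9.50 in LA and 11.34 to 12.12 in the ventricles, lower by 1.84 (SE 0.17, adjusted p = 7.79e-08). *Fzd9* was 6.58, 6.84, 7.66 and 6.66 in LA and 4.44 to 5.95 in the ventricles, higher by 1.53 (SE 0.36, adjusted p = 0.00251), or by 0.53 with normexp correction (adjusted p = 0.00238). Neither gene overlapped between the groups. *Fzd6*, *Fzd3* and *Fzd8* were higher in LA by 0.63 (SE 0.10), 0.61 (SE 0.19) and 0.57 (SE 0.17); the call for *Fzd8* was lost without LA replicate 1 (adjusted p = 0.0547), although each of its 3 probes was higher in LA when tested alone, by 2.06 (adjusted p = 1.54e-06), 0.73 (adjusted p = 0.00135) and 0.57 (adjusted p = 0.0164). The call was lost for *Fzd3* with normexp correction (0.11, adjusted p = 0.449). The co-receptor *Lrp6* was higher by 0.60 (SE 0.07, adjusted p = 1.35e-06), whereas *Lrp5* differed by -0.09 (SE 0.12). *Fzd4* (-0.38) and *Lgr5* (-0.95) were called lower in LA, but each lost the call when any 1 of 16 arrays was left out (adjusted p up to 0.16 and 0.144), and *Lgr5* was not above background on any array of LA, LV or RV and differed by -0.36 with normexp correction. Neither probe of *Fzd4* passed when tested alone (adjusted p = 0.0673 and 0.575). The endothelial mean was 11.45 to 11.81 in LA and 12.36 to 12.73 in LV and RV, and that of 5 macrophage genes 8.99 to 9.30 and 9.56 to 10.01. The mean of 3 erythroid genes was 8.96 to 9.60 in LA and 6.69 to 8.18 in LV and RV, and that of 5 adipocyte genes 8.72 to 9.61 and 7.77 to 8.47. The mesothelial mean is given below. The pacemaker mean was 7.42 to 7.84 in LA, 6.31 to 6.85 in LV and 7.04 to 7.26 in RV. The part of these markers in the differences between LA and V was not tested.

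**Figure D5:**
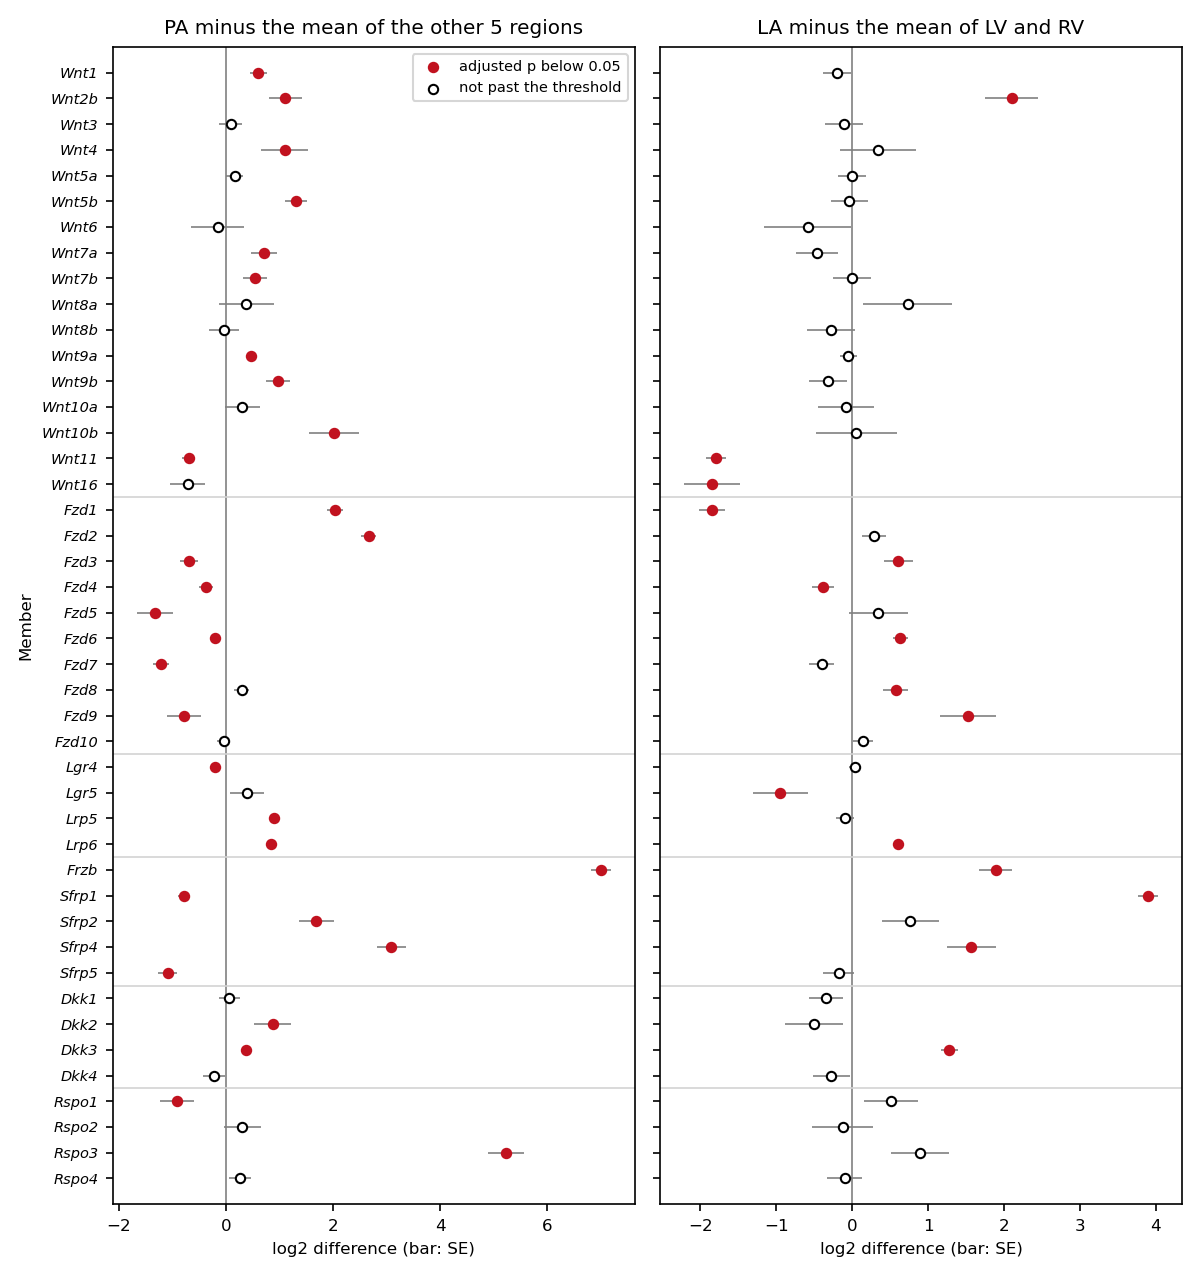
Log2 difference of each of the 44 members (rows) for PA relative to the 5 remaining regions (left) and for LA relative to the ventricles (right); bars are SE, and red points are members with an adjusted p below 0.05. *Frzb* and *Rspo3* lead on the left, at 7.0 and 5.23, and *Sfrp1* leads on the right, at 3.90.

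The sinoatrial node was compared with LA and with V. All these comparisons share arrays, so their results are given side by side and not as separate evidence. Against V, 8 members were higher and 3 lower in SA (12.3% and 15.8% of all genes). *Sfrp1*, at 13.20, 13.33, 13.24 and 13.29 in SA, was higher by 3.79 (SE 0.14, adjusted p = 1.5e-13) and *Dkk3* by 1.40 (SE 0.11, adjusted p = 7.29e-09), both without overlap. Tested alone, the 2 probes of *Sfrp1* were higher in SA by 3.98 and 1.72. *Wnt2b*, *Sfrp2*, *Lrp6* and *Lgr4* were also higher, by 1.29 (SE 0.35; 0.64 with normexp correction), 1.28 (SE 0.37), 0.59 (SE 0.07) and 0.49 (SE 0.08). *Wnt11*, *Fzd1* and *Lrp5* were lower, by 1.34 (SE 0.13), 1.28 (SE 0.17) and 0.49 (SE 0.12). The remaining calls were dim: *Sfrp4* was higher by 1.60 but above background on 2 of 4 SA and 1 of 7 V arrays, and *Rspo3* by 1.71, above background on 1 of 4 SA arrays and no V array. With normexp correction these differences were 0.62 and 0.55. *Fzd8* did not pass as a gene (0.39, adjusted p = 0.0951), but 2 of its 3 probes were higher in SA, by 2.15 (adjusted p = 1.24e-06) and 0.64 (adjusted p = 0.00546), while the third differed by 0.33 (adjusted p = 0.22). The mean of 5 adipocyte genes was 10.40 to 11.19 in SA and 7.77 to 8.47 in LV and RV, with *Adipoq* above background on every SA array and no LV array. The Schwann cell mean (6 genes) was 8.85 to 9.06 in SA and 7.11 to 8.28 in LV and RV, the endothelial mean 11.59 to 11.73 and 12.36 to 12.73, and the smooth muscle mean was higher in SA, as given above. The erythroid mean was 10.33 to 11.18 in SA and 6.69 to 8.18 in LV and RV, the macrophage mean 8.70 to 9.07 and 9.56 to 10.01, and the mean of 5 autonomic neuron genes 7.35 to 7.92 and 6.29 to 7.05. The part of these markers in the differences was not tested. The median difference of the members was 0.07, beside -0.06 over all genes.

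Against LA, 3 members were higher and 3 lower in SA (7.03% and 8.26% of all genes), with medians of 0.01 over the members and over all genes. *Frzb* was 8.95, 8.98, 8.89 and 9.37 in SA, all below the LA arrays, and lower by 1.80 (SE 0.25, adjusted p = 6.41e-05). *Fzd9* was 5.78, 5.70, 3.73 and 5.10 in SA and lower by 1.86 (SE 0.41, adjusted p = 0.00408), above background on 1 of these 4 arrays, and normexp correction gave -0.49 (adjusted p = 0.0202). *Lgr4* was 9.97, 10.22, 10.24 and 10.32 in SA against 9.64 to 9.79 in LA, higher by 0.45 (SE 0.09, adjusted p = 0.00138); SA had the highest mean of this R-spondin receptor among the 6 regions. *Wnt16* was higher by 1.37 (SE 0.42, adjusted p = 0.0311; 0.89 with normexp correction) with overlap, and the call was lost without LA replicate 1, 2 or 3 or SA replicate 3 or 4 (adjusted p up to 0.115). *Wnt11* (0.45) and *Fzd6* (-0.38) passed the test as well; *Wnt11* lost the call when any 1 of 14 arrays was left out (adjusted p up to 0.159), and *Fzd6* without LA replicate 1 or 2 or SA replicate 2 (adjusted p up to 0.0998) and with normexp correction (-0.26, adjusted p = 0.0982). All 3 of these calls were lost when SA and LA alone were fitted (adjusted p = 0.131 for *Wnt16*, 0.0956 for *Wnt11* and 0.0732 for *Fzd6*). *Sfrp1* did not pass, with a difference of -0.11 (SE 0.15), nor did *Dkk3*, with 0.12 (SE 0.12). With normexp correction 10 members were higher and 2 lower, while the median of all genes moved by 0.15.

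The mesothelium, the cell layer that covers the heart, moved along with LA. The mean of 4 mesothelial genes was 11.26 to 11.56 in LA, 7.64 to 9.06 in LV, 9.36 to 9.97 in RV, 9.55 to 10.20 in SA, 9.02 to 10.26 in PV and 8.54 to 10.27 in PA. These 4 genes were above background on every array outside PA. Between SA and LA the adipocyte mean differed too, at 10.40 to 11.19 and 8.72 to 9.61, as did the Schwann cell mean, at 8.85 to 9.06 and 8.04 to 8.76, the erythroid mean, at 10.33 to 11.18 and 8.96 to 9.60, the autonomic neuron mean, at 7.35 to 7.92 and 6.72 to 7.07, and the smooth muscle mean, at 11.98 to 12.76 and 9.80 to 10.32. *Frzb* and *Fzd9* were higher in LA than in V and SA, and the part of the markers in these differences was not tested.

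The pulmonary vein carries a sleeve of atrial muscle, and it was compared with LA and SA. Against LA, 4 members were higher and 1 lower in PV (6.99% and 6.51% of all genes). *Fzd4* was 11.92, 12.20, 11.91 and 12.46 in PV and 11.24, 11.74, 11.09 and 11.19 in LA, higher without overlap by 0.81 (SE 0.16, adjusted p = 0.00219). Tested alone, 1 of its 2 probes passed, and the other differed by 0.67 (adjusted p = 0.544). *Wnt5a*, the main ligand of the branch without β-catenin, was 5.55, 6.20, 5.97 and 5.75 in PV and 6.52, 6.77, 6.98 and 6.87 in LA, lower without overlap by 0.91 (SE 0.20, adjusted p = 0.00451), although normexp correction gave -0.23 (adjusted p = 0.243). PV had the lowest *Wnt5a* mean of the 6 regions. *Fzd1* was higher by 0.71 (SE 0.19, adjusted p = 0.0181) and *Sfrp5* by 0.79 (SE 0.23, adjusted p = 0.0256). The first call was lost without LA replicate 4 or PV replicate 3 (adjusted p up to 0.0692), and the second without LA replicate 1, 3 or 4 or PV replicate 2 or 4 (adjusted p up to 0.0973), and both were lost when PV and LA alone were fitted (adjusted p = 0.0763 and 0.0647). *Dkk3* did not pass as a gene (-0.35, adjusted p = 0.0656), but 3 of its 4 probes were lower in PV, by 0.69 (adjusted p = 0.00254), 0.57 (adjusted p = 0.00242) and 0.55 (adjusted p = 0.0126).

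*Wnt6*, a ligand expressed by epithelia, was above background on every array only in PV. Its level was 6.61, 5.94, 6.17 and 6.15 in PV and 4.43, 4.32, 5.07 and 3.17 in LA, and the difference of 1.97 (SE 0.64, adjusted p = 0.0475) lost the call when any 1 of 17 arrays was left out and with normexp correction (0.75, adjusted p = 0.0617). With each array left out it ran from 1.61 to 2.24. Its highest level, 8.45, was on RV replicate 3, while the other RV arrays were at 4.89 and 4.60. The count for PV against LA was 3 without LA replicate 1, LA replicate 4 or PV replicate 4. The median difference was -0.06 over the members and -0.03 over all genes, and with normexp correction 6 members were higher and 2 lower, with the median of all genes moved by 0.12. The smooth muscle mean was 12.81 to 13.43 in PV and 9.80 to 10.32 in LA, the Schwann cell mean 10.05 to 10.54 and 8.04 to 8.76, the adipocyte mean 9.81 to 11.52 and 8.72 to 9.61, the autonomic neuron mean 8.60 to 11.81 and 6.72 to 7.07, and the mesothelial mean was lower in PV, as given above. The erythroid mean was 10.26 to 10.79 in PV and 8.96 to 9.60 in LA, and the pacemaker mean 8.63 to 9.34 and 7.42 to 7.84. The lymphocyte mean, with *Cd3e* and *Cd79b* not above background on any PV array, was 4.37 to 4.67 and 5.27 to 6.57. The part of these markers in the differences was not tested.

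Against SA, 2 members were higher and 2 lower in PV (2.71% and 0.783% of all genes). *Frzb* was higher in PV by 1.88 (SE 0.25, adjusted p = 0.000762) and *Fzd4* by 0.62 (SE 0.16, adjusted p = 0.0428). *Wnt5a* was lower by 0.91 (SE 0.20, adjusted p = 0.0176; -0.48 with normexp correction) and *Dkk3* by 0.47 (SE 0.12, adjusted p = 0.0392). The groups did not overlap for any of the 4, where 3.12% of all genes were called without overlap. *Frzb* kept its call without each array in turn, while *Fzd4* lost it without any 1 of 15 arrays, *Dkk3* without any 1 of 7 and *Wnt5a* without any 1 of 4 (adjusted p up to 0.17, 0.13 and 0.0689). With normexp correction *Dkk3* (-0.49, adjusted p = 0.0621) and *Fzd4* (0.55, adjusted p = 0.082) lost their calls. Tested alone, 3 of the 4 probes of *Dkk3* were lower in PV, and neither probe of *Fzd4* passed (adjusted p = 0.0783 and 0.824). The count fell to 2 without LV replicate 3, PV replicate 1 or SA replicate 1, 3 or 4, and to 1 without PV replicate 4 or SA replicate 2, and it was 1 when PV and SA alone were fitted. It was split into 1 higher and 2 lower with scaling to the 75th percentile, and into 2 higher and 1 lower with quantile normalization. The median difference was -0.04 over the members and over all genes. The Schwann cell mean was 10.05 to 10.54 in PV and 8.85 to 9.06 in SA, the adipocyte mean 9.81 to 11.52 and 10.40 to 11.19, the autonomic neuron mean 8.60 to 11.81 and 7.35 to 7.92, and the smooth muscle and fibroblast means were higher in PV, as given above. The lymphocyte mean, with *Cd3e* and *Cd79b* not above background on any PV or SA array, was 4.37 to 4.67 in PV and 4.93 to 5.42 in SA. The pacemaker mean was 8.63 to 9.34 in PV and 9.54 to 9.67 in SA. The part of these markers in the results was not tested.

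Between LV and RV no member passed limma's test at an adjusted p below 0.05, where 0.298% of all genes were higher and 0.224% lower in LV. At an unadjusted p below 0.05 there were 9 of 44 members, where 10.7% of all genes were past it, and the count of calls was 0 under every alternative that could be fitted and with each array left out. The smallest unadjusted p belonged to *Wnt6*, with a difference of -2.28 (LV minus RV, SE 0.69, adjusted p = 0.168 in limma). *Rspo1* came next, with a difference of -1.31 (SE 0.43, adjusted p = 0.217); it was 7.47, 10.05 and 7.22 on the RV arrays, and 6.73 to 7.18 in LV. RV replicate 3 for *Wnt6* and RV replicate 2 for *Rspo1* lay well above the other RV arrays, and with 4 arrays against 3 these differences were not separable from the spread. The mesothelial mean was 7.64 to 9.06 in LV and 9.36 to 9.97 in RV, the fibroblast mean 12.81 to 13.12 and 13.22 to 13.56, and the endothelial mean 12.54 to 12.73 and 12.36 to 12.45. The pacemaker mean was 6.31 to 6.85 in LV and 7.04 to 7.26 in RV, and the erythroid mean 7.65 to 8.18 and 6.69 to 7.64. The part of all these markers was not tested.

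Further genes of the pathway were taken from 5 lists, of which the genes on the array are counted. The lists are not separate: that of common target genes shares *Notum*, *Apcdd1*, *Lef1*, *Tcf7*, *Znrf3* and *Rnf43* with the others and holds the member *Lgr5*. Their counts are read beside the shares of all genes, which in PA were 31.4% higher and 27.7% lower. In PA, of 3 genes that act on the acyl group or secretion of Wnt proteins, *Porcn*, which acylates them, was higher by 0.88. *Wls*, which carries Wnt proteins to the surface, was lower by 0.69. *Notum*, which removes the acyl group, was lower by 1.28 with 3 of 4 PA and 17 of 19 other arrays above background. Of 16 other receptors and polarity genes, 6 were higher and 3 lower, among them the Wnt5a receptors *Ror1* (3.83) and *Ror2* (2.64), the glypican *Gpc3* (2.53) and the polarity cadherin *Celsr1* (-3.21). Of 10 other modulators, 4 were higher and 1 lower, led by *Apcdd1* (3.39), *Cthrc1* (2.50), *Igfbp4* (2.40) and *Sostdc1* (-1.96). Of 23 genes of cytoplasm and nucleus, 15 were higher and 2 lower: the Dishevelled-binding *Dact3* (4.17) and *Dact1* (2.02) and the repressors *Tle3* (1.61) and *Tcf7l1* (1.43) had the largest differences, and *Ctnnb1*, which encodes β-catenin, was lower by 0.47. Of 15 common target genes, 8 were higher and 1 lower, with the feedback inhibitors *Nkd1* (3.85) and *Axin2* (2.19) and the matricellular genes *Ccn5* (3.58) and *Ccn4* (3.43) among them. The list medians were -0.69, 0.19, 0.45, 0.64 and 0.69 in this order, beside 0.05 over all genes.

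Between LA and V the counts of higher and lower genes in the same lists were 2 and 0 of 3, 6 and 0 of 16, 2 and 2 of 10, 2 and 3 of 23, and 4 and 4 of 15, where 16.9% of all genes were higher and 18.4% lower. The lower target genes include *Lgr5*, which was not above background on any of these arrays. *Ccn4* (4.07), *Notum* (2.84) and *Ccn5* (2.37) were higher in LA, as were *Gpc3* (1.63), *Gpc4* (1.34) and *Wls* (1.09), and the cell cycle gene *Ccnd1* was lower by 1.48. Between SA and V they were 2 and 0, 6 and 1, 4 and 1, 0 and 5, and 5 and 1 (12.3% and 15.8% of all genes), with *Ccn4* (3.59), *Ccn5* (2.57), *Notum* (2.21) and the collagen-regulating *Cthrc1* (2.03) higher in SA. Between SA and LA they were 0 and 0, 3 and 4, 3 and 1, 2 and 1, and 3 and 1 (7.03% and 8.26% of all genes), and between PV and LA 0 and 0, 1 and 1, 3 and 0, 3 and 0, and 3 and 0 (6.99% and 6.51% of all genes), with *Cthrc1* higher in SA by 1.30 and in PV by 2.08. Between PV and SA they were 0 and 0, 1 and 1, 1 and 0, 2 and 0, and 2 and 0 (2.71% and 0.783% of all genes). Between LV and RV the norrin co-receptor *Tspan12* alone passed, higher in LV by 0.51 (SE 0.11, adjusted p = 0.0359), where 0.298% of all genes were higher and 0.224% lower.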

How the data were processed

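RNA of 23 tissue samples was hybridised to 1-color (Cy3) Agilent SurePrint G3 Rat GE arrays and read with Agilent Feature Extraction 11.0.1.1, as the submitters' processing notes name it. The deposited normalized intensity of each probe is the scanner's processed signal times 1 factor per array (0.881 to 1.52; 99.6% to 99.8% of probes within 2%), which sets the 90th percentile of each array to about the same value (3984 to 3988). Array medians were 102.7 to 136.3. The marks for signal well above background, which are of no numeric unit, were taken from the scanner files that the authors deposited. No spot was saturated, and the number of arrays limits the precision.

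Of 45596 probes, 156 with missing values were left out. Accessions were matched to RefSeq symbols, which named 21047 probes of 16544 genes; 12 members had several probes, and the highest probe on each array was taken. Values were log2(signal + 1), genes with a value above 4 on at least 1 array were kept, and 1 model of all 23 arrays was fitted with limma 3.58.1 in R 4.3.3 (moderated tests, Benjamini-Hochberg adjustment over all genes tested, threshold 0.05). V is the mean of the LV and RV means in a contrast. LA, V and SA were also fitted alone. Probes were tested in a fit of all probes. Groups came from the labels. The fit was tested on simulated data. Named were the members that passed the test and whose higher group was wholly above background, the others by counts or in short. The members, pathway lists and marker lists were chosen with earlier results of these data known. Alternatives were other scalings, quantile normalization, normexp background correction (offset 50), other filters, a pseudocount of 16, another choice of probe, a variance trend, slide, row and replicate number as blocks, fits of the compared arrays alone, and each array left out. Nothing says that arrays of a region came from separate animals, so p-values measure only the spread between these samples, which may be technical. No 2 arrays were alike beyond a rank correlation of 0.991.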

Additional observations from a re-analysis of the deposited data

Results flagged for a closer look

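In 8 of 185 groups of 4 arrays, 1 array stood apart from the rest of its region by Dixon's criterion, which chance gives in about 5% of groups. *Fzd10* was 9.53 on LA replicate 3 and 9.31 to 9.34 on the other LA arrays. *Rspo2* was 6.69 on LA replicate 4 and 5.49 to 5.66 on the others, *Sfrp5* was 6.27 on LA replicate 2 and 5.74 to 5.82 on the others, and *Wnt3* was 5.20 on LA replicate 1 and 6.36 to 6.58 on the others. In PV, *Fzd3* was 5.50 on replicate 1 and 6.39 to 6.50 elsewhere, and *Fzd6* was 8.72 on replicate 3 and 8.44 to 8.47 elsewhere. *Rspo4* was 6.25 on SA replicate 4 and 7.17 to 7.31 on the other SA arrays. *Wnt8a* was 4.29 on PA replicate 4 and 5.71 to 5.97 on the other PA arrays. RV, with 3 arrays, was not examined in this way.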

How the results depend on the processing

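None of the 71 member differences that passed the test changed direction under the alternatives that were run; the other differences were not recomputed. With normexp background correction the number of members called was 12 for SA against LA, 8 for PV against LA and 2 for PV against SA, and with only the compared arrays in the fit it was 1 for PV against SA; the cause was not tested. With each array left out in turn, the number called ran from 22 to 31 for PA against the other regions, from 13 to 16 for LA against V, from 4 to 7 for SA against LA, from 11 to 13 for SA against V, from 3 to 6 for PV against LA, from 1 to 4 for PV against SA, and stayed at 0 for LV against RV. It ran from 28 to 32 over the 6 regions, from 20 to 23 without PA and from 15 to 20 over LA, V and SA. The other total counts of members called stayed within 1.5 times the value reported, but their splits could move more: with only the compared arrays in the fit, 1 member was higher in SA than in LA, and 2 were higher and 2 lower in PV than in LA, and with slide or row as a block 3 were lower in LA than in V.

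Of the 71 differences recomputed, normexp correction took 13 past the threshold to the other side, scaling to the 75th percentile and slide as a block 5 each, row as a block 4, a variance trend 3 and a pseudocount of 16 took 2; scaling to the 90th percentile, no filter and the probe with the highest mean took 0. Quantile normalization took 5 of 70, and fits of only the compared arrays 9 of 41. Of 55 pairs of same-numbered arrays, 12 correlated above 0.1 in their deviations from the region means (-0.38 to 0.34). These included all 4 pairs of LV and PA, which share a slide and a row each; in no other pair of regions did every pair pass 0.1, so the numbers were not taken to pair the arrays as a whole. With the replicate number as a block the counts were 28 for PA, 16 for LA against V, 8 for SA against LA, 12 for SA against V, 5 for PV against LA, 3 for PV against SA, 0 for LV against RV, 29 over the 6 regions, 20 without PA and 18 over LA, V and SA. Dim members are limited by signal over background: the lowest signal above background ran from 3.86 to 5.66 (log2) between arrays.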
